A study of Drosophila melanogaster with 9 samples.

Results

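The comparison described here sets tumors at the tenth round of serial transplantation (T10) against tumors at the second round (T2), on the 3 arrays labelled T10 and the 3 labelled T2 of the 9 arrays in the series; the other 3 are from round 1 (T1). The tumors began as clones in the guts of adult Drosophila females. Clone cells were homozygous for Apc2 N175K, a loss-of-function allele, and Apc Q8, a null allele, and expressed UAS-RasV12, a gain-of-function transgene, with wild-type UAS-Sna and UAS-GFP under esg-Gal4, the driver of intestinal progenitor cells. These Apc-Ras-Sna clones were made by MARCM with hsp70-flp, FRT82B, Gal80 and a UAS-Luciferase transgene in the cross. All 9 arrays share this genotype, so none is a control without the transgenes. Macroscopic metastases of 3 flies, found in the abdomen outside the gut, were carried as allografts in young yw females, and at each round 1 piece of a tumor was lysed for RNA while other pieces went into new hosts. The round is therefore confounded with the passage of time and with the number of hosts a tumor had lived in. Metastases in this model are polyclonal, the pieces were not sorted, and host cells may be among them; in such bulk RNA a lower level from fewer cells of a type and a lower level per cell cannot be told apart. The 3 samples of a round carry the tag technical replicate in GEO, although the series describes metastases of 3 flies, so p-values measure only the spread between these samples, which may be technical. Values are RMA expression values on the log2 scale for 18769 probe sets after 183 control probe sets were set aside, and a difference of 1 is a change of 2-fold.

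Snail, the transcription factor expressed by the sna transgene, represses genes that hold epithelial cells together, and it is known for driving the epithelial-to-mesenchymal transition (EMT). The fly intestine seals its cells with smooth septate junctions, whereas epithelia of ectodermal origin, such as epidermis, trachea and imaginal discs, use pleated septate junctions and lay an apical matrix of chitin and zona pellucida proteins over their surface. The question that T10 and T2 address is how the expression program of a metastasis changes as it is passaged, including the epithelial genes. At T10, transcripts of chitin and apical matrix genes (kkv, verm, dpy), of several cadherins (ds, stan, Cad74A) and of pleated septate junction genes (Gli, sinu) stood above those of T2 replicates 1 and 2. All 4 smooth septate junction genes measured (mesh, Ssk, Tsp2A, hoka) stood below them. The brighter probe set of mesh was lower by 85.4-fold, or by 19.6-fold against all 3 T2 arrays. Its dimmer probe set had log2 changes of only -1.17 and -0.74. The array labelled T2 replicate 3 carried most of these levels at the values of T10. Whether these differences pass a test thus depends on that array. Several of the calls made without it also depended on T2 replicate 1 or T2 replicate 2, as given below.

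On all 9 arrays, no probe set passed a Benjamini-Hochberg adjusted p under 0.05 with limma's moderated test, neither among those higher in T10 (0.00% of 18769) nor among those lower (0.00%), and limma without moderation also called 0. At an unadjusted p under 0.05, 1586 probe sets were higher and 1614 lower, or 2322 and 1089 with each array centred on its median. Without T2 replicate 3, in a fit on the other 8 arrays, 591 probe sets were higher in T10 (3.15%) and 810 were lower (4.32%). Leaving out T2 replicate 1 or T2 replicate 2 in its place gave 0 calls each. The array was left out because its profile was known to resemble T10, so the calls without it are conditional on that choice: they say where T10 differed from T2 replicates 1 and 2, against the spread within the 3 rounds, and a round 2 with only those 2 arrays has lost the sample that was most like T10. These calls also depend on the other arrays. They numbered 504 when T2 replicate 1 was left out as well, 628 with T2 replicate 2 left out, where the lone T2 array is assumed to vary like the other groups, and 867 with T10 replicate 2 left out. Below, rose and fell are used for calls of the fit without T2 replicate 3. None of the 990 genes so called passed on all 9 arrays, where their adjusted p was 0.0631 to 0.864.

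**Figure D1:**
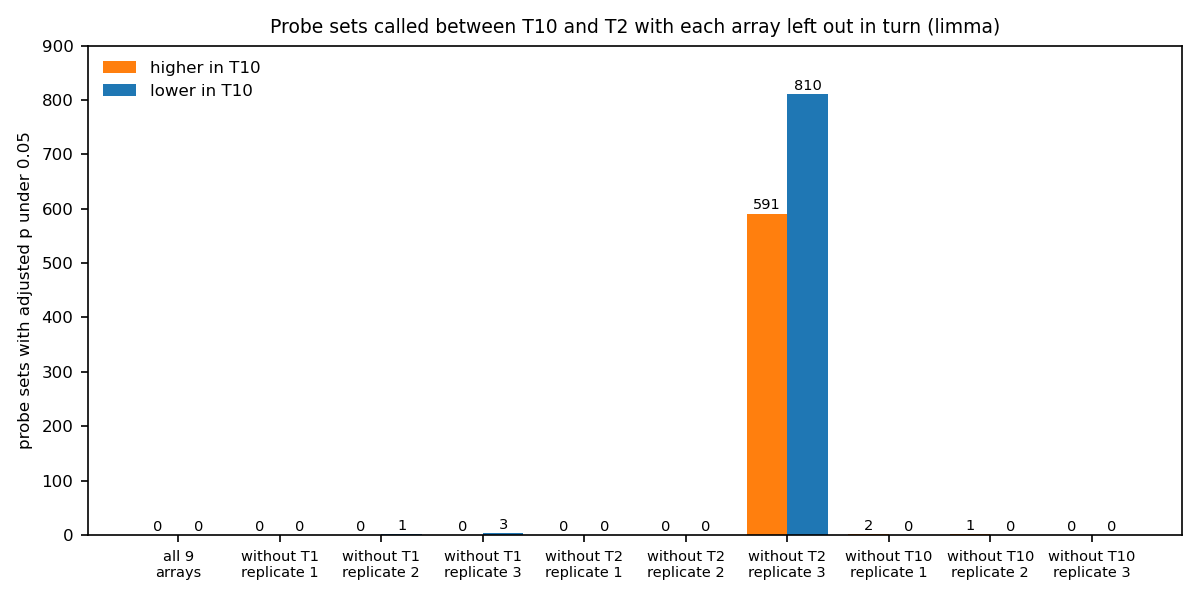
Number of probe sets with a limma adjusted p under 0.05 between T10 and T2 (y axis), higher (orange) or lower (blue) in T10, on all 9 arrays and with each array left out in turn (x axis). Only the fit without T2 replicate 3 gave more than 3 calls, 591 higher and 810 lower.

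T2 replicate 3 correlated with the 3 T10 arrays at 0.964 to 0.984 across probe sets and with the other T2 arrays at 0.932 and 0.95, whereas T2 replicates 1 and 2 correlated with each other at 0.976. Probe sets are not independent replicates, and these values are descriptions. Its place between the rounds was measured per probe set as a position that is 0 at the mean of T2 replicates 1 and 2 and 1 at the mean of T10. Over the 591 probe sets called higher the median position was 0.882 (interquartile range 0.696 to 1.02), and over the 810 called lower it was 0.801 (0.57 to 0.995). It lay past 0.75 at 417 of the former (70.6%) and 455 of the latter (56.2%). At 348 (58.9%) and 354 (43.7%) probe sets it was within or beyond the range of the 3 T10 arrays. T2 replicate 3 stayed below 0.25 at 8 of the probe sets called higher and 78 of those called lower. As the position is built from the arrays that made the calls, it describes T2 replicate 3 and tests nothing. The 3 T1 arrays did not set the direction of these calls, but they entered the estimate of the spread. Their positions are on the same scale and are likewise a description. The T1 medians were 0.0467, 0.0154 and 0.135 at the probe sets called higher and 0.374, 0.255 and 0.25 at those called lower. All 3 T1 arrays lay below every T10 array at 579 (98.0%) of the probe sets called higher. They lay above every T10 array at 688 (84.9%) of those called lower. The same share over all probe sets is not given here, and choosing probe sets with T10 apart from T2 favors such counts. These counts are thus a description and test nothing. The spread of the differences between arrays of the same number shows T2 replicate 3 in another way: the SD of T10 minus T2 over all probe sets was 0.979 for replicate 1, 1.02 for replicate 2 and 0.447 for replicate 3.

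**Figure D2:**
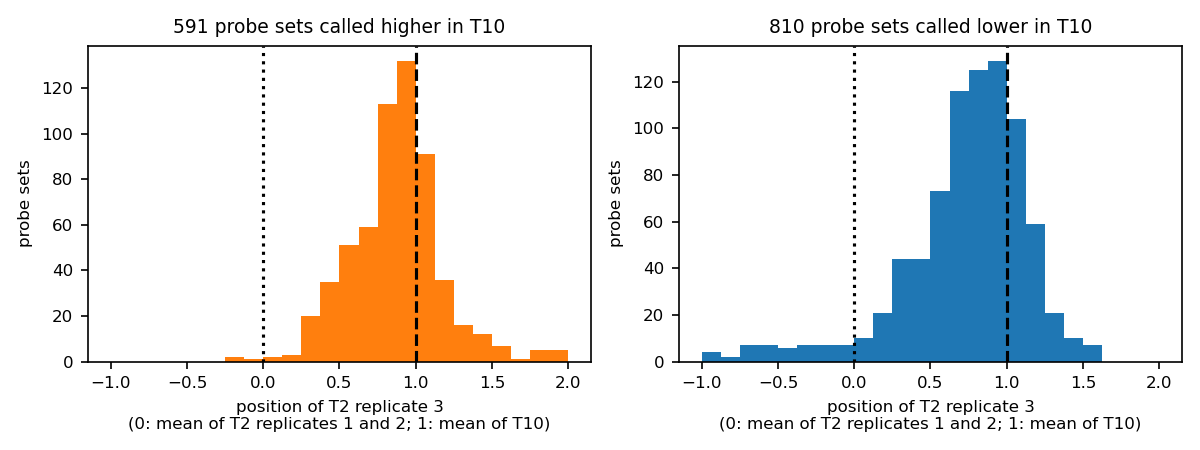
Position of T2 replicate 3 (x axis, no unit: 0, dotted, is the mean of T2 replicates 1 and 2 and 1, dashed, the mean of T10) at the probe sets called higher (left) and lower (right) in T10 without that array; the y axis counts probe sets, and positions past the axis are drawn at its ends. The medians are 0.882 and 0.801, and 8 of the probe sets called higher and 78 of those called lower lie under 0.25.

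Setting the test aside, the 3 T10 arrays lay above all 3 T2 arrays at 2231 probe sets (11.9%) and below them at 1767 (9.41%). With each array centred on its median these were 3017 above and 1038 below, so the split between the directions depends on the scaling. With 3 arrays against 3 an exact permutation test cannot give a two-sided p below 0.1. Without T2 replicate 3, 4140 probe sets (22.1%) had T10 above and 3686 (19.6%) had it below. Among genes, each represented by its probe set with the highest mean, the 12 largest differences in each direction with no overlap over all 6 arrays were taken as the leading genes, so their direction was fixed by that choice. An exact permutation test of each of these genes (two-sided) would give that smallest p by construction.

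The largest of the higher ones was nw (narrow), at 5.07, 6.52 and 12.49 in T2 and 12.93, 13.08 and 12.62 in T10. T2 replicate 3 was just below the lowest T10 array and far above the other arrays of its round. The log2 change was 4.85 (standard error 1.85, limma adjusted p = 0.263) on all arrays and 7.08 (1.11, adjusted p = 0.0132) without T2 replicate 3. Other genes of this set held T2 replicate 3 further from T10. Gld, glucose dehydrogenase, was at 3.31, 3.26 and 4.84 in T2 and 6.77, 6.89 and 7.26 in T10, a log2 change of 3.17 (standard error 0.398) with an adjusted p of 0.0972 on all arrays and 0.00104 without T2 replicate 3. nvy (nervy), of the ETO family of transcriptional corepressors, was at 3.46, 3.38 and 4.48 in T2 and 7.43, 7.58 and 5.93 in T10 (adjusted p = 0.109 and 0.0072 with limma). sona, a secreted ADAMTS metalloprotease, was at 5.58, 6.13 and 7.03 in T2 and 10.74, 9.34 and 8.27 in T10. All 3 T1 arrays of Gld, nvy and sona were below T2 replicate 3. The SOX factor Sox15 was at 5.47, 5.41 and 6.52 in T2 and 8.00, 11.85 and 7.83 in T10, and its adjusted p without T2 replicate 3 was 0.0965. T10 replicate 2 stood far above the other T10 arrays. fj (four-jointed), the Golgi kinase that phosphorylates the cadherins Fat and Dachsous, was at 5.18, 8.26 and 10.72 in T2 and 11.23, 11 and 11.27 in T10 (adjusted p = 0.0615 without T2 replicate 3). The other members were SKIP, a protein that interacts with the Shal potassium channel, Oseg4, of intraflagellar transport, CG1299, CG12964, CG9689 and CG6398. Without T2 replicate 3, 10 of the 12 were called, and 5 to 10 of these kept the call when a further array was left out, the fewest without T2 replicate 1. Further probe sets had changes without T2 replicate 3 of 1.17 for SKIP, 3.96 and 1.53 for sona and 0.64 for Sox15, and those at 1.53 and 0.64 were not called.

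**Figure D3:**
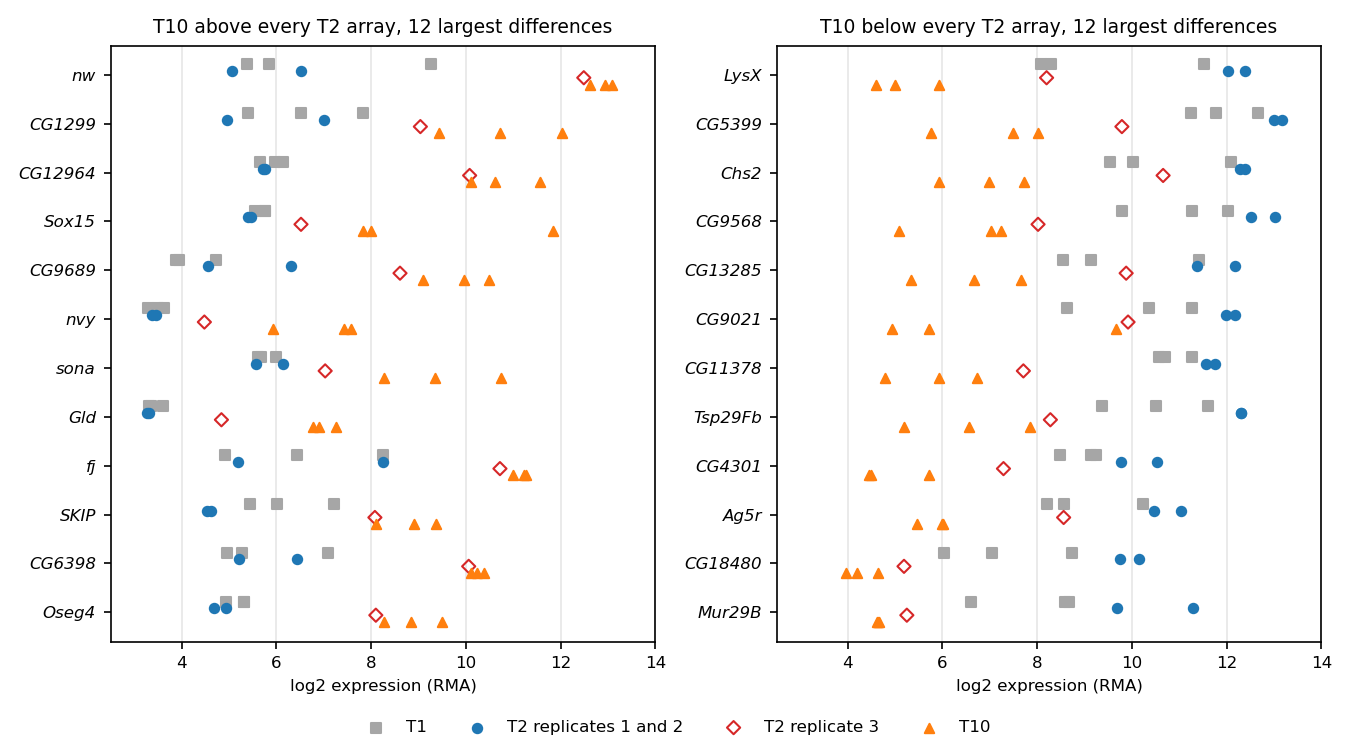
Log2 expression (x axis) on each array for the 12 genes with the largest difference among those whose 3 T10 arrays lie above (left) or below (right) all 3 T2 arrays; squares are T1, circles T2 replicates 1 and 2, open diamonds T2 replicate 3 and triangles T10. T2 replicate 3 lies between the other T2 arrays and T10 in every row, next to T10 for nw and CG6398 and nearer to T2 for nvy, sona and Sox15.

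The leading lower genes included several of the gut lining. LysX, a lysozyme of the digestive tract, was at 12.02, 12.39 and 8.20 in T2 and 4.60, 5.01 and 5.93 in T10. The log2 change was -5.69 (standard error 1.28, limma adjusted p = 0.171) on all arrays and -7.03 (1.01, adjusted p = 0.0103) without T2 replicate 3. Chs2, the chitin synthase of the gut, was at 12.29, 12.38 and 10.66 in T2 and 6.99, 5.92 and 7.72 in T10 (-4.90, standard error 0.789, adjusted p = 0.144 on all arrays and 0.011 without T2 replicate 3). For both genes T2 replicate 3 was some way below its round and clearly above T10, with positions of 0.57 and 0.307. Mur29B, a mucin-related gene, showed the other pattern, at 11.29, 9.68 and 5.25 in T2 and 4.63, 4.64 and 4.67 in T10. The T1 arrays of LysX, Chs2 and Mur29B lay between the T10 arrays and T2 replicates 1 and 2, as low as 8.09, 9.53 and 6.60. Ag5r, of the antigen 5 family, was at 10.46, 11.03 and 8.56 in T2 and 5.46, 6.02 and 6.0 in T10. The tetraspanin Tsp29Fb was at 12.31, 12.30 and 8.28 in T2 and 7.85, 5.18 and 6.57 in T10. The remaining 7 carry only CG numbers (CG5399, CG9568, CG13285, CG9021, CG11378, CG4301 and CG18480), with T2 means of 8.37 to 11.99 and T10 means of 4.27 to 7.09. CG9021 was the only one of the 12 not called without T2 replicate 3 (adjusted p = 0.0725), with T10 replicate 3 at 9.67 against 5.71 and 4.94. Between 6 and 11 of the 11 calls were kept with a further array left out, the fewest without T2 replicate 1. Values of 3 to 5 are at the low end of the arrays, and whether they lie above background is unknown from RMA values, so a fold against them is the least certain.

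At an adjusted p under 0.10 on all 9 arrays, 2 probe sets were higher in T10 and 9 were lower. They are named because of their small number, after their values were seen, and in each of them T2 replicate 3 was nearer to the other T2 arrays than to T10. Chitinases headed the lower ones: Cht9 was at 8.58, 9.21 and 9.24 in T2 and 6.05, 6.15 and 6.46 in T10 (log2 change -2.79, standard error 0.267, limma adjusted p = 0.0631). Cht12 was at 7.75, 8.00 and 7.83 in T2 and 5.35, 5.45 and 5.92 in T10 (-2.29, standard error 0.245, the same adjusted p). The tetraspanin Tsp42Ec (9.61, 9.46 and 8.53 against 6.73, 5.74 and 6.26), HDAC11, a histone deacetylase (8.05, 7.69 and 7.34 against 6.19, 6.41 and 6.10), CG5910, CG2256, asRNA:CR31845 and probe sets without a symbol made up the rest. Whether the labelling kept strand is not given in the sources used here, so asRNA:CR31845 cannot be told apart from a transcript of the opposite strand. The higher ones were Gld and sns. sns (sticks and stones), an immunoglobulin-family adhesion protein of fusing myoblasts and nephrocytes, was at 4.18, 4.80 and 5.64 in T2 and 7.54, 7.90 and 7.37 in T10 (2.73, standard error 0.347, adjusted p = 0.0972).

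More widely, 372 genes rose (3.10% of the 11982 with a representative probe set) and 618 fell (5.16%) without T2 replicate 3. T2 replicate 3 stayed with its round, below a position of 0.25, at 6 of the genes that rose and 61 of those that fell. The 6 were ltl (larval translucida), TkR99D, a receptor for tachykinin peptides, haf, LpR2, a lipophorin receptor, g (garnet), a subunit of the AP-3 adaptor of lysosomal traffic, and CG31908. For ltl, T2 was at 5.79, 5.94 and 6.49 and T10 at 8.82, 9.36 and 8.10 (log2 change 2.69, standard error 0.37, limma adjusted p = 0.109 on all arrays and 0.00906 without T2 replicate 3). TkR99D was at 5.46, 5.84 and 5.45 in T2 and 7.39, 7.64 and 7.04 in T10. Neither gene overlapped between the rounds with all 3 T2 arrays. Of the 61 genes on the lower side, the 6 with the largest change were CG18473, CG5910, Obp18a, an odorant-binding protein, Cht9, cGlr2, a cGAS-like receptor, and CG43062. Obp18a was at 9.86, 10.18 and 9.93 in T2 and 7.02, 6.32 and 8.31 in T10, and cGlr2 at 10.23, 10.14 and 9.68 in T2 and 8.32, 6.38 and 8.25 in T10.

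The 12 largest rises beyond the leading genes were at T10 levels in T2 replicate 3, which follows from how they were chosen. Their log2 changes on all arrays, 3.37 (CG15279) or more, were larger than that of Oseg4 (2.97), the smallest of the leading genes. Any of them without overlap would thus have been a leading gene, so this is a description. Among them were transcription factors and proteins of the apical matrix and cuticle. ap (apterous), the LIM-homeodomain selector of the dorsal wing, was at 4.09, 4.69 and 10.25 in T2 and 9.01, 11.86 and 10.50 in T10, a log2 change of 6.07 (standard error 0.721, limma adjusted p = 0.00616) without T2 replicate 3 and 4.11 (1.53, adjusted p = 0.257) with it. spz3, of the Spätzle family of Toll ligands, was at 4.37, 5.42 and 11.29 in T2 and 11.03, 11.29 and 10.48 in T10. slf (schlaff), a lectin-like protein of the cuticle, was at 4.24, 4.74 and 10.32 in T2 and 11.11, 9.22 and 10.33 in T10. The homeobox gene Dr (Drop) was at 3.14, 3.33 and 8.32 in T2 and 6.0, 10.68 and 9.23 in T10, and the forkhead gene fd96Cb at 5.35, 5.72 and 9.35 against 11.15, 12.14 and 8.40. In all of these T2 replicate 3 lay within the range of the T10 arrays, and the T1 arrays were at most 6.06, the value of spz3 in T1 replicate 3. CG12581, CG15279 and 5 genes taken up with their groups below (Cht7, kkv, ds, dpy, uif) completed the 12, and 6 to 11 of the calls were kept with a further array left out, the fewest without T2 replicate 1.

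Of the 12 largest falls beyond the leading genes, CG32115 had the smallest standard error, at 10.15, 9.30 and 4.21 in T2 and 3.88, 3.86 and 4.25 in T10 (log2 change -5.73, standard error 0.381, limma adjusted p = 0.00147 without T2 replicate 3 and 0.241 on all arrays). mex1 (midgut expression 1) was at 10.60, 10.13 and 5.63 in T2 and 5.53, 4.85 and 4.96 in T10. exex (extra-extra), a homeobox gene of motor neurons, was at 10.03, 8.60 and 4.02 in T2 and 4.04, 4.23 and 4.20 in T10. For these 3 genes the array T2 replicate 3 was at or next to T10 levels, while the lowest T1 value was 7.12, that of exex. Npc2e, of the Niemann-Pick C2 family of sterol-binding proteins, was at 11.24, 9.52 and 6.09 in T2 and 5.24, 5.24 and 5.63 in T10. Oatp33Eb, an organic anion transporter, was at 10.30, 9.40 and 5.40 against 4.90, 5.19 and 4.89, and the chitinase Cht4 at 11.21, 10.97 and 6.85 against 6.05, 6.08 and 5.72. Those last 3 genes had T2 replicate 3 above the T10 range and nearer to it than to the other T2 arrays. CG9380, CG13321, CG42240 and CG15422, with mesh and hoka of the smooth septate junction, were the others, and 9 to 12 of the calls were kept with a further array left out, the fewest without T2 replicate 1.

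Groups of genes were described by counts of called members, beside the 3.10% and 5.16% of all genes called higher and lower without T2 replicate 3, and by the median log2 difference of their members, beside medians of 0.02 on all arrays and 0.0133 without T2 replicate 3 over all genes. No member of any list passed on all 9 arrays. The list of trachea and apical chitin matrix stood highest: 8 of its 19 measured members rose and 0 fell, and its median was 2.60 on all arrays and 3.35 without T2 replicate 3. verm and serp are chitin deacetylases that limit tracheal tube length, and serp rose by 4.29 on the log2 scale (2.94 on all arrays). verm was at 6.60, 8.55 and 12.50 in T2 and 13.34, 12.48 and 11.97 in T10, a log2 change of 5.02 (standard error 0.7, limma adjusted p = 0.00934) without T2 replicate 3 and 3.38 (1.32, adjusted p = 0.265) with it. kkv, the chitin synthase of cuticle and trachea, was at 5.03, 5.62 and 10.79 in T2 and 10.91, 11.27 and 10.51 in T10 (5.57, standard error 0.581, adjusted p = 0.00394 without T2 replicate 3, and 3.75, 1.40 and 0.257 with it). In both, T2 replicate 3 lay within the T10 range, so the 3 T2 and 3 T10 arrays overlapped. Cht7, a chitinase, and knk (knickkopf), which organizes chitin, rose by 5.91 and 3.94 on the log2 scale (4.01 and 2.84 on all arrays). dpy, a giant apical matrix protein, and pio, both with a zona pellucida domain, rose by 5.31 and 4.86 (3.54 and 3.26 on all arrays), and uif, an apical transmembrane protein, by 5.23 (3.56). None of the 19 members had all 3 T10 arrays above all 3 T2 arrays. The mean level of the list was 6.21, 7.01 and 9.30 in T2 and 9.67, 9.66 and 9.10 in T10. Between 2 and 8 of the 8 calls were kept with a further array left out, 2 of them (kkv and verm) without T2 replicate 1. In the list of zona pellucida proteins, which shares dpy and pio, these 2 of 10 rose and 0 fell, and both calls were lost without T2 replicate 1.

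Genes that specify tracheal cells form a list of their own. Of 6 measured members of the list of tracheal identity and FGF signaling none was called, and the median was 0.00167 on all arrays and 0.07 without T2 replicate 3. btl, the FGF receptor of the trachea, was at 10.60, 9.18 and 8.11 in T2 and 7.69, 8.18 and 8.45 in T10, with overlapping rounds and the lower level in T10. bnl, the FGF ligand that draws tracheal branches toward a tissue, was at 9.0, 8.82 and 9.14 in T2 and 11.11, 10.51 and 10.04 in T10, with no overlap. Its log2 change was 1.57 (standard error 0.359, limma adjusted p = 0.171) on all arrays and 1.64 (0.419, adjusted p = 0.0645) without T2 replicate 3, and bnl was at 9.43 to 10.66 in T1. vvl, a POU factor of trachea and other tissues, was at 5.49, 5.36 and 7.53 in T2 and 7.06, 10.88 and 8.22 in T10 (adjusted p = 0.096 without T2 replicate 3).

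Of the septate junction genes, 4 of 4 in the smooth kind fell and 6 of 21 in the pleated kind rose without T2 replicate 3, while none passed on all 9 arrays. All 4 genes of the smooth septate junction, the occluding junction of the midgut, fell, with a list median of -3.76 on all arrays and -5.19 without T2 replicate 3. mesh was at 12.17, 11.85 and 5.63 in T2 and 6.13, 4.69 and 5.96 in T10, a log2 change of -6.42 (standard error 0.695, limma adjusted p = 0.00456) without T2 replicate 3 and -4.29 (1.63, adjusted p = 0.261) with it. hoka was at 12.54, 12.46 and 8.19 in T2 and 8.21, 4.90 and 7.11 in T10. For both genes T2 replicate 3 lay inside the T10 range. A further, dimmer probe set of mesh was at 5.63, 5.58 and 4.32 in T2 and 4.53, 4.36 and 4.42 in T10. Its log2 change was -1.17 without T2 replicate 3 and -0.74 on all arrays. Tsp2A, a tetraspanin, was at 12.20, 12.13 and 8.03 in T2 and 7.90, 7.09 and 7.67 in T10, and Ssk (snakeskin), the fourth component, at 13.17, 13.14 and 11.29 against 10.76, 10.70 and 10.73. These last 2 did not overlap between the rounds, T2 replicate 3 being just above T10. The mean level of the list was 12.5, 12.4 and 8.28 in T2, 8.25, 6.85 and 7.87 in T10, and 10, 10.9 and 11.9 in T1, so that T1 lay between T10 and T2 replicates 1 and 2. At least 3 of the 4 calls were kept with a further array left out, hoka being lost without T2 replicate 1 (adjusted p = 0.0881) and without T2 replicate 2 (0.0811).

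In the pleated septate junction 6 of 21 measured genes rose and 0 fell, and the median was 0.693 on all arrays and 0.903 without T2 replicate 3. Gli (gliotactin), of junctions between 3 cells, was at 6.27, 7.28 and 8.79 in T2 and 10.09, 9.56 and 9.19 in T10, a log2 change of 2.84 (standard error 0.409, limma adjusted p = 0.0104) without T2 replicate 3 and 2.17 (0.593, adjusted p = 0.202) with it. bark (bark beetle), also of those corners, was at 10.41, 10.33 and 11 in T2 and 11.31, 11.35 and 11.16 in T10. The claudin sinu was at 8.58, 9.13 and 10.07 against 10.33, 10.16 and 10.46. These 3 genes kept T10 above every T2 array. The claudin kune rose by 1.03 on the log2 scale, the Ly6 protein cold by 1.05 and the melanotransferrin Tsf2 by 1.18, and on all arrays their changes were 0.75, 0.73 and 0.85. Over the list 6 of 21 members had all 3 T10 arrays above all 3 T2 arrays and 0 below, beside 11.4% and 10.8% of all genes. The changes are small beside those of the smooth junction, and none of the 6 calls was kept without T2 replicate 1, with adjusted p-values of 0.0594 (Gli) to 0.223 (kune); 3 to 5 were kept with any other array left out.

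**Figure D4:**
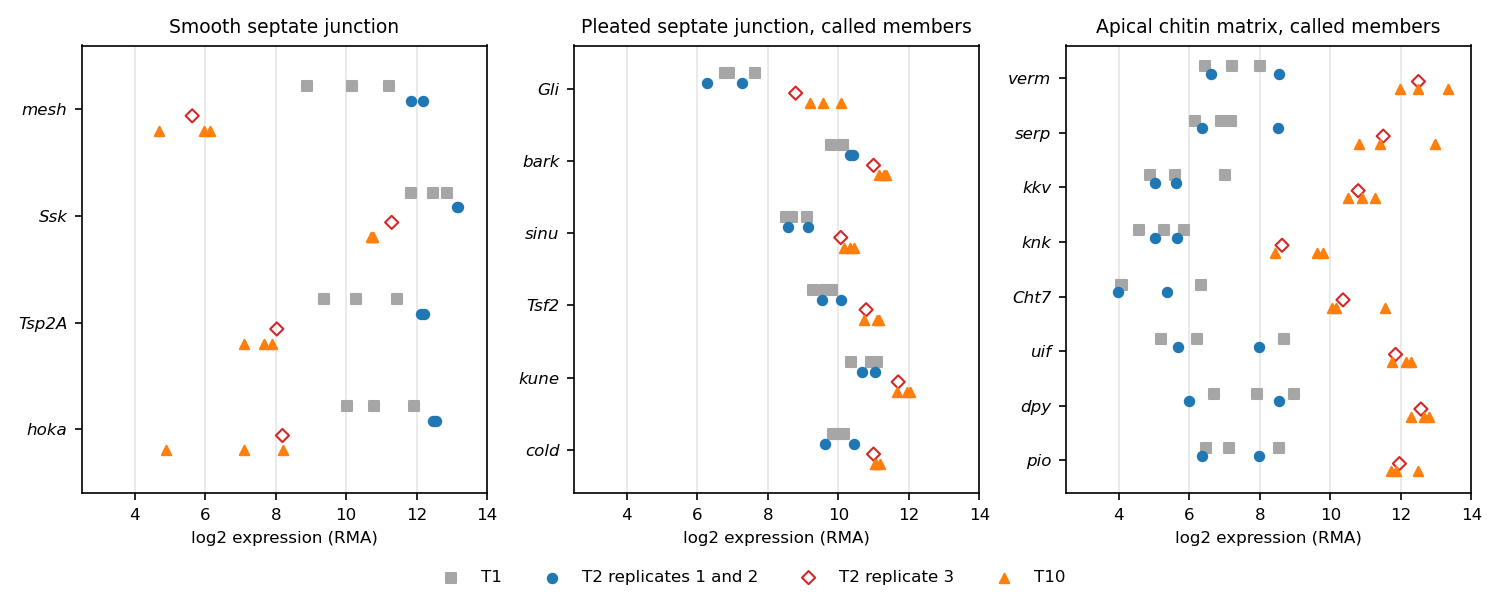
Log2 expression (x axis) on each array for the 4 smooth septate junction genes, the 6 called pleated septate junction genes and the 8 called genes of the chitin matrix list; squares are T1, circles T2 replicates 1 and 2, open diamonds T2 replicate 3 and triangles T10. T2 replicate 3 lies with T10 in nearly every row, for example at 5.63 for mesh, where the other T2 arrays are at 12.17 and 11.85.

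Among other adhesion genes, 6 of 12 measured members of the cadherin superfamily rose and 0 fell, with a median of 1.05 on all arrays and 1.20 without T2 replicate 3. ds (dachsous), the cadherin partner of Fat in tissue polarity and growth, was at 4.36, 4.74 and 9.80 in T2 and 9.13, 11 and 9.81 in T10 (log2 change 5.43, standard error 0.554, limma adjusted p = 0.00363 without T2 replicate 3 and 0.253 on all arrays). stan (starry night), the cadherin of planar polarity, was at 5.60, 6.08 and 9.45 in T2 and 8.67, 10.14 and 9.67 in T10. Cad74A was at 5.70, 7.60 and 11.28 in T2 and 11.15, 11.24 and 11.27 in T10, with T2 replicate 3 above all 3 T10 arrays. Cad86C, Cad96Cb and CadN, the neural cadherin, rose by 2.44, 1.19 and 2.17 on the log2 scale (1.66, 0.86 and 1.38 on all arrays), and 2 to 5 of the 6 calls were kept with a further array left out, the fewest without T2 replicate 1. Apical membrane and polarity genes held 3 rises in 17 (Cad74A, btsz, a synaptotagmin-like protein of the apical membrane, and the receptor phosphatase Ptp10D), with a median of 0.163 and 0.103. The adherens junction held 1 in 8, the immunoglobulin protein ed (echinoid), at 6.91, 7.41 and 9.24 in T2 and 9.60, 9.58 and 9.37 in T10. Its call was lost without T2 replicate 1, as were the calls of Cad74A, btsz and Ptp10D. Of these 3 only Ptp10D was kept without T10 replicate 2. The call of btsz was the least stable, kept with T1 replicate 3 left out and lost with any other further array left out. Of its further probe sets, that at 1.64 without T2 replicate 3 was called, and those at 0.70 and 1.22 were not. In the list of mesenchymal and EMT genes 2 of 9 rose and 0 fell, hbs (hibris), a nephrin-like adhesion protein, and CadN. Both calls were lost without T2 replicate 1. The call of hbs was kept with any other further array left out, and that of CadN only without T10 replicate 2. The basal lamina list had 0 calls in 12, with a median of 0.382 on all arrays and 0.478 without T2 replicate 3. Pxn was at 6.02, 6.34 and 7.96 in T2 and 8.46, 7.38 and 7.23 in T10. LanB1, a laminin chain, went the other way, at 11.57, 11.42 and 11.22 in T2 and 10.88, 10.50 and 11.23 in T10.

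Integrins and focal adhesion genes were called in the other direction, 4 of 13 lower and 0 higher, with a median of -0.193 on all arrays and -0.327 without T2 replicate 3. The 4 were the alpha subunits ItgaPS4, scb and mew and the beta subunit Itgbn, an integrin of the midgut. ItgaPS4 was at 6.99, 7.49 and 5.51 in T2 and 5.61, 4.35 and 4.65 in T10, and mew at 11.50, 11.20 and 10.53 in T2 and 9.23, 8.40 and 10.13 in T10. scb (9.68, 9.69 and 7.41 against 8.60, 7.71 and 7.88) and Itgbn (7.93, 7.74 and 5.20 against 5.93, 5.79 and 5.54) had T2 replicate 3 below every T10 array. Itgbn was at 4.64, 6.02 and 6.11 in T1, so that only T2 replicates 1 and 2 were high. None of these 4 calls was kept without T2 replicate 1 or without T2 replicate 2.

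Among genes of the intestinal lineage some factors fell and most genes were not called. In the progenitor list 2 of 12 fell and 0 rose, with a median of -0.708 and -0.847. Sox100B, a SOX factor of the group that holds mammalian Sox9, was at 9.73, 8.59 and 4.39 in T2 and 4.58, 4.33 and 4.74 in T10 (log2 change -4.61, standard error 0.33, limma adjusted p = 0.00147 without T2 replicate 3 and 0.264 on all arrays). spdo (sanpodo), a regulator of Notch trafficking, had a change of -1.36 on the log2 scale (-0.89 on all arrays) and lost its call without T2 replicate 1 (adjusted p = 0.157). Sox21a, which drives progenitor differentiation, was at 12.09, 11.64 and 9.53 in T2 and 7.81, 5.85 and 10.38 in T10, where T10 replicate 3 stood above T2 replicate 3 (adjusted p = 0.0941 without T2 replicate 3). Delta, the Notch ligand of intestinal stem cells, was at 9.44, 8.25 and 10.64 in T2 and 10.43, 11.05 and 10.58 in T10, higher in T10 than in T2 replicates 1 and 2 but not called (adjusted p = 0.0644). The midgut factors Hnf4 (10.15, 9.69 and 9.40 against 8.86, 8.74 and 8.97) and cad (caudal; 9.75, 6.78 and 3.67 against 4.05, 3.67 and 3.81) fell, 2 of 7 measured. cad was at 3.79 to 4.11 in T1, so that only T2 replicates 1 and 2 were high. The call of Hnf4 was lost without T2 replicate 1 (adjusted p = 0.0647) and that of cad without T10 replicate 2 (0.0522).

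Of 33 measured enterocyte and digestive enzyme genes 4 fell and 0 rose, with a median of -0.00667 and -0.05. Beside LysX and Chs2 these were Lip4, a lipase, at 10.09, 9.29 and 5.07 in T2 and 4.97, 5.05 and 4.96 in T10, and Myo28B1, an unconventional myosin, at 8.09, 7.29 and 3.53 in T2 and 3.37, 3.50 and 4.23 in T10. The other 29 were not called, and the mean level of the list was 5.06 to 5.55 in T2 and 4.74 to 4.96 in T10. The calls of LysX and Chs2 were lost without T2 replicate 1 and without T2 replicate 2 (adjusted p = 0.0593 to 0.0656). Among 18 enteroendocrine genes 1 fell, Phm, an enzyme of peptide amidation, at -0.62 on the log2 scale (-0.50 on all arrays), a call lost with 6 of the 8 further arrays left out in turn. The defining enteroendocrine markers pros and NPF were at 3.73 to 4.40 in all T2 and T10 arrays.

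Wing disc and epidermal selector genes had a median of 1.13 on all arrays and 1.90 without T2 replicate 3. Of 20 measured, ap, Dr, grh and dpp rose and 0 fell. grh (grainyhead), a transcription factor of epidermal barriers, was at 5.08, 5.14 and 7.23 in T2 and 6.86, 7.87 and 7.26 in T10 (log2 change 2.22, standard error 0.302, limma adjusted p = 0.00845 without T2 replicate 3 and 0.258 on all arrays), and a further probe set rose by 4.55. dpp, the BMP ligand of the wing disc, was at 3.89, 4.95 and 8.49 in T2 and 7.47, 9.17 and 8.55 in T10. Both genes had T2 replicate 3 within T10. The mean level of the list was 5.85, 5.94 and 8.01 in T2 and 7.65, 8.36 and 7.90 in T10, and 1 to 4 of the 4 calls were kept with a further array left out, only ap without T2 replicate 1.

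Signaling lists had few calls. In the Hippo list 2 of 13 rose, ds and ex (expanded), an upstream regulator and a target of Yorkie, at 8.51, 8.27 and 9.63 in T2 and 10.08, 10.43 and 9.64 in T10; the call of ex was lost without T2 replicate 1 (adjusted p = 0.0562 with limma) and without T2 replicate 2 (0.0729). In the EGFR and Ras list 1 of 17 rose and 1 fell. aop (yan), an ETS repressor downstream of Ras, was at 8.84, 8.35 and 10.30 in T2 and 10.80, 10.75 and 10.28 in T10 (log2 change 2.02, standard error 0.22, limma adjusted p = 0.00463 without T2 replicate 3 and 0.218 on all arrays), and S (Star), which helps to export EGFR ligands, fell by 0.65 (a change of -0.36 on all arrays), a call lost with any further array left out. In the list of JNK, stress and apoptosis 1 of 15 rose, the relaxin-like hormone gene Ilp8, at 7.52, 8.37 and 11.37 in T2 and 11.41, 11.63 and 11.54 in T10 (3.58, standard error 0.263, limma adjusted p = 0.00158 without T2 replicate 3, and 2.44, 0.848 and 0.241 on all arrays), and it kept its call with each further array left out. In the JAK/STAT list 1 of 8 rose, the phosphatase Ptp61F, by 0.72 (0.45 on all arrays), and the call was lost without T2 replicate 1 (adjusted p = 0.0824 with limma), T2 replicate 2 (0.14), T10 replicate 2 (0.0638) or T10 replicate 3 (0.0517). The ecdysone list had 1 rise and 1 fall in 19. Eip93F, an ecdysone-induced transcription factor of metamorphosis, was at 10.51, 9.69 and 6.07 in T2 and 6.67, 7.17 and 6.09 in T10, while Imp, an RNA-binding protein of early developmental time, was at 11.50, 11.40 and 12.03 in T2 and 12.19, 12.31 and 12.04 in T10, a call lost without T2 replicate 1 (0.0618) and without T2 replicate 2 (0.08). The Notch list had 0 calls in 17 and the Wnt list 0 in 5; ft and other members without a named probe set are not analysed here.

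**Figure D5:**
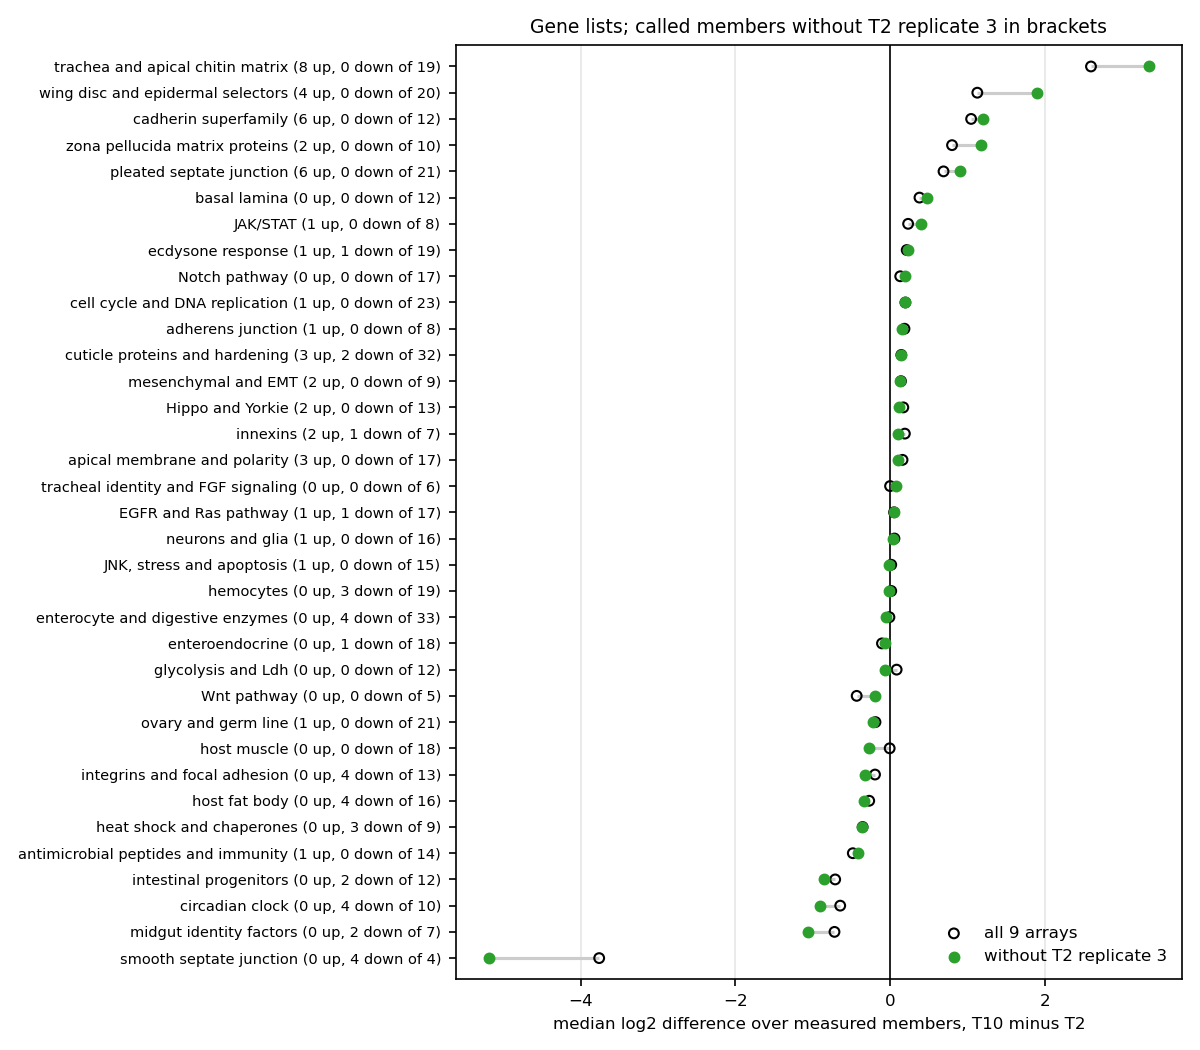
Median log2 difference T10 minus T2 over the measured members of each of 35 gene lists (x axis), on all 9 arrays (open circles) and without T2 replicate 3 (green); brackets give the members called up and down without T2 replicate 3 and the number measured. The smooth septate junction lies lowest (-3.76 and -5.19) and the chitin matrix list highest (2.60 and 3.35), and most lists lie near 0.

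Of 10 circadian clock genes 4 fell and 0 rose, with a median of -0.643 and -0.898. tim (timeless) was at 12.38, 12.07 and 7.97 in T2 and 8.17, 6.31 and 7.86 in T10 (log2 change -4.78, standard error 0.502, limma adjusted p = 0.00406 without T2 replicate 3 and 0.231 on all arrays). Clk, the activator that pairs with cyc, was at 8.77, 7.42 and 4.77 in T2 and 4.24, 4.13 and 4.17 in T10. The photoreceptor gene cry and cyc had changes of -2.38 and -0.74 on the log2 scale (-1.43 and -0.53 on all arrays). The time of day at dissection is not given in the sources used here. Between 2 and 4 of these calls were kept with a further array left out, tim and Clk each time. Of 9 heat shock and chaperone genes 3 fell, Hsp68 (12.55, 12.36 and 10.52 against 10.06, 8.88 and 10.43), Hsp27 and DnaJ-1, and none of these calls was kept without T2 replicate 1 or without T2 replicate 2.

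In the remaining lists the calls went both ways or were single. Among 32 cuticle genes 3 rose (Cpr64Ac, Cpr49Ac and Cpr64Aa) and 2 fell (Cpr49Ae and Cpr51A). Cpr64Ac was at 6.69, 6.74 and 8.99 in T2 and 9.07, 8.96 and 9.28 in T10, and Cpr49Ae at 8.32, 9.26 and 4.35 in T2 and 4.33, 4.57 and 4.42 in T10, and these were the calls kept with each further array left out. Among 7 gap junction genes Inx3 and ogre rose and Inx7 fell. ogre was at 7.51, 10.28 and 12.20 in T2 and 12.49, 12.35 and 12.08 in T10, and Inx7 at 10.87, 10.97 and 8.25 in T2 and 8.42, 7.43 and 7.62 in T10. Between 1 and 3 of the 3 calls were kept with a further array left out, the fewest without either other T2 array or any T10 array. In the cell cycle list 1 of 23 rose, Cdk4, at 9.12, 8.70 and 9.85 in T2 and 10.10, 10.18 and 10.15 in T10 (log2 change 1.23, standard error 0.159, limma adjusted p = 0.00718 without T2 replicate 3, and 0.92, 0.262 and 0.212 on all arrays), and it kept its call with each further array left out. Of the immunity list 1 of 14 rose, spz3, and of 12 glycolysis genes none was called.

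The transgene and the driver gene were measured by probe sets of sna and esg, which cannot tell transgenic from native transcripts where both hold the probes. sna was at 10.50, 10.04 and 8.73 in T2 and 7.90, 9.16 and 9.46 in T10, with T2 replicate 3 inside the T10 range. Its log2 change was -0.92 (standard error 0.577, limma adjusted p = 0.435) on all arrays and -1.43 (0.525, adjusted p = 0.17) without T2 replicate 3. esg was at 11.04, 10.56 and 10.46 in T2 and 10.53, 9.39 and 9.70 in T10 (-0.81, standard error 0.321, adjusted p = 0.267 and 0.201). esg, a defining marker of the intestinal progenitors named as the source, was high in both rounds, and neither gene's difference passed.

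Markers of host tissue were measured beside these groups, and their part in the results was not tested. Of the fat body genes, apolpp and Yp2 were highest, among the T2 and T10 arrays, in T2 replicate 2, while Tsp42Er was higher in T2 replicate 1 (8.48) than in T2 replicate 2 (7.60). apolpp, the lipophorin precursor, was at 5.25, 9.93 and 5.88 in T2 and 5.02, 4.42 and 4.79 in T10, and the yolk protein gene Yp2 at 8.10, 10.55 and 6.43 in T2 and 5.83, 6.27 and 5.58 in T10. Over 16 fat body genes 4 fell (bmm, the brummer lipase, Tsp42Er, Yp2 and Yp3), with a mean level of 7.26, 8.03 and 6.72 in T2 and 6.53 to 6.64 in T10. In T1, Yp2 was at 7.19, 5.60 and 5.95 and Yp3 at 6.74, 5.73 and 6.04, below T2 replicates 1 and 2. The larval fat body genes Lsp2 and Fbp1 were at 3.81 to 4.97 in every T2 and T10 array. Of 18 muscle genes none was called at its representative probe set, and the mean level was 5.07 to 6.78 in T2 and 5.37 to 6.10 in T10. Act88F, an actin of flight muscle, was at 4.71 to 5.06. The markers Mlc2 (4.32, 5.98 and 4.88 in T2) and up (5.33, 6.69 and 5.43) were highest in T2 replicate 2 among the T2 and T10 arrays. Further probe sets were called higher for sls (1.86, limma adjusted p = 0.0259 without T2 replicate 3) and lower for Strn-Mlck (-1.11, 0.034). Of 19 hemocyte genes 3 fell: the engulfment receptors drpr and NimC4 and the GATA factor srp. srp was at the low end of the arrays throughout, at 4.11, 4.28 and 3.33 in T2 and 3.45, 3.32 and 3.26 in T10. drpr changed by -0.865 on the log2 scale and NimC4 by -2.80 (-0.72 and -1.73 on all arrays). drpr and NimC4 are also known from glia and other engulfing cells, and srp from fat body and midgut precursors. The defining plasmatocyte and crystal cell markers eater, Hml, NimC1 and PPO1 were at 4.22 to 5.34, and the list mean was 5.78 to 6.05 in T2 and 5.66 to 6.01 in T10. Of 21 ovary and germ line genes 1 rose, ovo, a zinc finger factor that is also active in epidermis, while the germ line gene vas was at 4.05 to 4.48. Of the other ovary markers, Vm26Aa was at 7.96, 5.72 and 5.69 in T2 and 5.82, 5.72 and 5.71 in T10. For osk the values were 4.90, 6.03 and 4.45 in T2 and 4.22, 4.39 and 4.37 in T10. It was not called there (limma adjusted p = 0.0687 without T2 replicate 3). Of its further probe sets, 1 was called lower (-1.15, adjusted p = 0.0434) and 1 was not (-0.23). Of 16 neuron and glia genes 1 rose, Snap25, of synaptic vesicle release. The neuron markers did not follow it. elav was at 10.66 to 10.84 in T2 and T10, and nSyb at 7.04, 6.82 and 6.94 in T2 and 6.80, 6.74 and 6.61 in T10. The calls of ovo and Snap25 were both lost without T2 replicate 1, which left 1 T2 array, with log2 changes of 2.3 and 2.2. Both were also lost without T1 replicate 1. The call of ovo was lost without any 1 of the T10 arrays. That of Snap25 was lost without T2 replicate 2, T10 replicate 2 or T10 replicate 3. None of the fat body calls was kept without T2 replicate 2, and none of the hemocyte calls without T2 replicate 1 or without T2 replicate 2. The control probe sets at the 3′ and 5′ ends of actin, eIF-4a and GAPDH transcripts, a sign of RNA quality, differed between T10 and T2 by -0.03, 0.16 and -0.13 in their mean log2 ratio.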

How the data were processed

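RNA of 9 tumor pieces was amplified over 17 cycles from 25 ng, and 8 µg of cDNA was hybridised to single-color Affymetrix arrays. The authors used affy and affyPLM (versions not given in the sources used here), excluded no sample and deposited log2 values after RMA, rounded to 2 decimals, with array medians of 6.49 to 6.73. The labels keep hosts at 25 °C, and the methods give another temperature. No further scaling was applied. The file holds 18952 probe sets, of which 183 are controls; the other 18769 entered the tests: 13647 had 1 gene symbol, 402 several and 4720 none. A gene (11982 in all) was represented by its probe set with the highest mean.

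T10 and T2 were compared in R 4.3.3 with limma 3.58.1 (lmFit, eBayes) on all 9 arrays and without T2 replicate 3, with Benjamini-Hochberg adjustment over all probe sets at 0.05; T1 arrays added to the estimate of the spread. Replicate numbers were not used as pairs. The fit was tested on simulated data. The 35 gene lists had 626 members, of which 493 had a named probe set. Members, lists and the choice to leave out T2 replicate 3 were made with earlier results of these data known. Genes were named by rule: the 12 largest differences each way without overlap on all arrays (no probe set passed there), the next 12 called each way without T2 replicate 3, up to 4 members of each list by p, the 5 genes each way where T2 replicate 3 lay farthest outside the other arrays, sna and esg; further called list members, host markers, genes with T2 replicate 3 at T2 levels and those under an adjusted p of 0.10 were added after their values were seen. Alternatives were the arrays and weights in the fit, the replicate block, moderation, filter, floor, scaling and thresholds. The number of arrays limits the precision. A motif search of promoters was planned and was not run, since no promoter sequences were used here.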

Additional observations from a re-analysis of the deposited data

How the results depend on the processing

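On all 9 arrays the number of calls was 0, and it stayed 0 with T10 and T2 arrays alone, with trend, without moderation, with a filter on dim probe sets, centred arrays or 1 probe set per gene. It was 5 with quantile normalization, 3 with a floor of 5 and 11 at an adjusted p under 0.10. Array weights, which count an array that departs from its round for less, gave 1118 calls (443 higher, 675 lower), and 903 of the 1401 calls without T2 replicate 3 were among them. Leaving out arrays or replicate numbers gave 0 to 1401 calls, where 1401 was without T2 replicate 3 and 1263 without every array of number 3. In the fit without T2 replicate 3, the 1401 calls became 504 without moderation, 873 with a floor of 5, 395 at an adjusted p under 0.01 and 2289 under 0.10. Leaving out further arrays or numbers gave 20 to 1543 calls, the fewest without number 2 (20) and number 1 (49), which leave 1 T2 array. The share of probe sets without overlap was 21.3% on all arrays, 41.7% without T2 replicate 3, 33.7% without T2 replicate 1 and 25.7% without T2 replicate 2.

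The deviations of same-numbered T2 and T10 arrays from their rounds correlated at 0.0618, -0.284 and 0.00191, and those of T1 and T10 at -0.0137, 0.122 and 0.188, so the numbers were not taken as pairs. With 3 arrays a round, 1 of them apart, these values do not show whether same-numbered tumors came from 1 fly. With the replicate block there were 0 calls on all arrays and 937 without T2 replicate 3, of which 786 were among the 1401. Of the named genes' changes under all alternatives, 2886 kept direction and side of the threshold on all arrays and 315 passed it anew, and without T2 replicate 3 these were 2293 and 22, with 745 no longer past it. The change of Strn-Mlck, a muscle kinase gene not called at its representative probe set, ranged from -0.055 without replicate 1 to 2.93 without replicate 2 when T2 replicate 3 was left out too; 2 of its further probe sets also ran the other way, of which 1 was called lower (-1.11, limma adjusted p = 0.034 without T2 replicate 3). The cause of these changes was not tested. All arrays centred on their medians gave a median change of 0.13 over all probe sets, against 0.04 as deposited.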

Other observations

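Some genes were at levels in T2 replicate 3 outside the range of the other 8 arrays; the other arrays were not compared in this way. The 5 named genes farthest above were CG4766, tadr, disco, Sp1 and Cpr62Bc. disco (disconnected) and Sp1, zinc finger factors of appendage and head development, were at 9.68 and 10.47 in T2 replicate 3, against 4.13 to 7.75 and 4.93 to 8.60 on the other arrays. tadr, an amino acid transporter gene, was at 8.21 against 5.62 to 6.13, Cpr62Bc, a cuticle protein gene, at 7.58 against 4.37 to 5.77, and CG4766 at 7.48 against 3.45 to 5.28. The 5 farthest below were Mayo, Cyp6d4, a cytochrome P450, del (deadlock), CG31347 and out. out was at 6.31 against 7.16 to 9.92, and Mayo at 7.28 against 8.67 to 10.43. These genes were chosen for this pattern, so their values are a description and carry no test.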
